A study of Harpegnathos saltator with 14 samples.

Results

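Adult workers were set against embryos of the ponerine ant Harpegnathos saltator, the adult female caste and the earliest stage sampled in a whole-body series over development. The comparison takes 4 of the 14 libraries, 2 of adult workers and 2 of embryos, chosen by their labels. The other 10 libraries, 2 each of instar 1 larvae, instar 4 larvae, early pupae, late pupae and males, entered neither the comparison nor its filter and served to follow the called genes through the rest of development. Workers and embryos came from the same husbandry, plaster nests at 25 °C and 50% humidity with a 12-hour light cycle, in colonies given live crickets 3 times a week, and neither was treated. No strain, colony, number of pooled animals, worker age or reproductive state, or age or sex of the embryos is given in the labels. An embryo library may therefore hold male as well as female embryos. Poly(A) RNA was sequenced as strand-specific libraries made with dUTP in the second strand. Nothing in the labels ties the replicates to separate animals or colonies, and a p-value here reflects just the scatter of these libraries, part of which may be technical.

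An insect egg starts with transcripts loaded by its mother. As these are broken down the embryo turns on its own genome, and its cells divide and take up their fates before the organs work. An adult worker is made of differentiated tissues, such as gut, fat body, muscle, nervous system, venom gland and cuticle, and it feeds, forages and tends brood. In Harpegnathos a worker can also mate and lay eggs when the queen is lost. In whole bodies, fewer cells of a type and less RNA per cell cannot be told apart.

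Expression was deposited as RPKM for 20755 gene models, that is, as reads scaled to the length of the model and to the size of the library. The identifiers, which begin with HSALG or XLOC, are not paired with gene names by the table, and 0 of them were found among the 14329 genes of the RefSeq annotation of assembly Hsal_v8.6. Genes are therefore described by group, by size of change and by stage. The 4 genes with the largest differences are given by identifier, with no function assigned, and whether each tissue label is borne out by marker genes was not examined. A gene entered the test when 2 or more of the 4 libraries had it at 1 RPKM or above, which left 11053 genes. Read numbers could be resolved from the steps of the RPKM values. Reads in genes numbered 12000092 and 7597667 in worker replicates 1 and 2, against 5650770 and 8002027 in embryo replicates 1 and 2. A single read at a gene of median length was worth between 0.0331 and 0.0614 RPKM in these libraries.

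The worker libraries lay much closer to each other than the embryo libraries did. The difference between replicates on the log2(RPKM + 1) scale had an SD over genes of 0.311 in workers and 0.931 in embryos. Replicates were 4-fold or more apart for 10 genes in workers, against 476 genes in embryos, of which 146 were higher in embryo replicate 1 and 330 in embryo replicate 2. Pearson's r across genes was 0.985 between the workers and 0.869 between the embryos. Between a worker and an embryo library r ran from 0.486 to 0.560. These are correlations across genes, which are not independent replicates, and carry no test.

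On the deposited scale workers differed from embryos in most of the genes tested, mostly with lower values in workers. Under median scaling and quantile normalization fewer than 50% of genes were called, and the excess of lower calls turned round or nearly vanished. Of 11053 genes tested, 1443 were called higher in workers (13.1%) and 5059 lower (45.8%), 6502 in all (58.8%), by limma on log2(RPKM + 1) of the 4 libraries at a Benjamini-Hochberg adjusted p below 0.05. The median difference over all tested genes, worker minus embryo, was -0.93 on the log2 scale, so a typical gene had a lower RPKM in workers. The direction of the majority depended on this shift. With the libraries scaled to a common median, 2015 genes were called higher (18.2%) and 998 lower (9.03%). With quantile normalization, 1857 were called higher (16.8%) and 1874 lower (17.0%). Genes called in the same direction under all 3 scalings numbered 1409 higher (12.7%) and 960 lower (8.69%). No gene called in 1 direction as deposited was called in the other under either scaling. Median scaling raised every difference by the same amount, and the lower call nearest 0 was -0.67 as deposited. For that scaling the outcome was therefore nearly fixed in advance. The remaining 4099 genes called lower as deposited had a median difference of -1.41, against -2.28 for the 960 called lower under all 3 scalings.

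**Figure D1:**
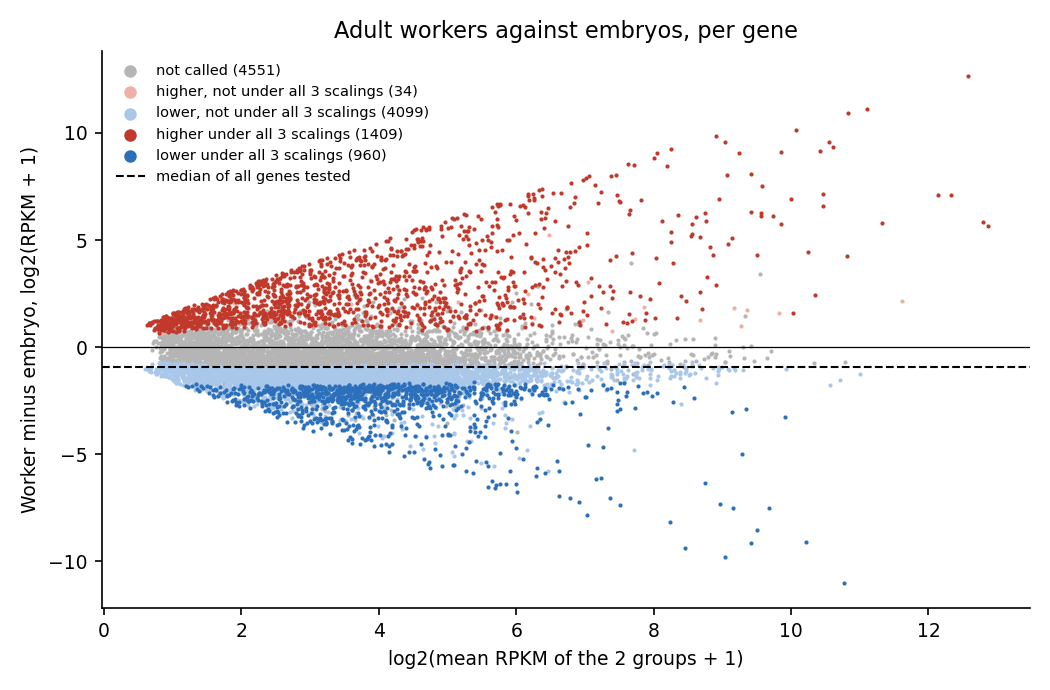
Each point is 1 of 11053 genes tested, with its mean level on the x axis and its worker minus embryo difference on the y axis, both in log2 units of RPKM. Points are coloured by whether the gene was called under all 3 scalings, and the dashed line marks the median difference of -0.93. The 4099 genes called lower as deposited but not under all 3 scalings lie mostly below that line, between -1.67 and -1.18 for their middle 50%, while the 1409 higher genes spread far above it.

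The count of calls also depended on which library was left out. In limma 1 spread per gene serves both groups, and the worker libraries agreed more closely than the embryo libraries. Leaving out a library also leaves fewer from which to estimate the spread, and these effects were not separated. Without worker replicate 1 there were 234 genes called higher and 26 lower, and without worker replicate 2 there were 205 and 29. In these fits the only replicate pair left was the embryo pair. Without embryo replicate 1 there were 1963 higher and 6227 lower, and without embryo replicate 2 there were 1903 and 6850, with a lone embryo library assumed to vary like the workers. The genes called under all 3 scalings numbered 229 higher and 20 lower without worker replicate 1, 204 and 22 without worker replicate 2, 1854 and 3070 without embryo replicate 1, and 1807 and 2942 without embryo replicate 2. Counting values alone, both worker libraries lay above both embryo libraries in 1998 genes (18.1%) and below both in 7187 (65.0%). These counts used RPKM as deposited, so they carry the median difference of -0.93 and do not settle the direction of the majority. With 2 libraries per group such a separation can often arise by chance, and these counts were not tested.

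**Figure D2:**
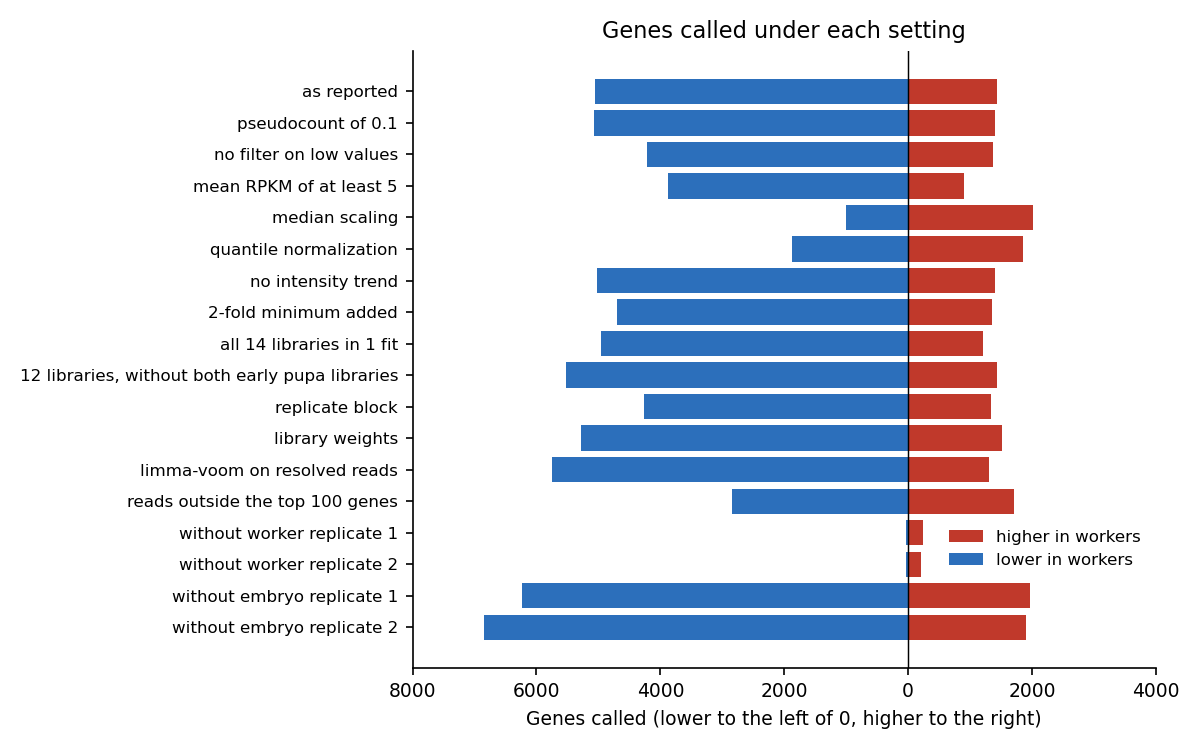
Bars give the number of genes called higher in workers (right of 0) and lower in workers (left of 0) at adjusted p below 0.05 under each setting. The lower calls number 5059 as reported. With no worker or embryo library left out they range from 998 under median scaling to 5744 with limma-voom. The higher calls then range from 899 to 2015. Without a worker library the lower calls fall far below their range, and without an embryo library they exceed it.

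Worker transcriptomes were concentrated in few genes and embryo transcriptomes were spread over many. The 10 most abundant genes took 27.0% and 22.1% of gene reads in worker replicates 1 and 2, against 8.99% and 7.32% in embryo replicates 1 and 2. The top 100 took 54.0% and 47.6% in workers, against 20.7% and 20.6% in embryos. To reach 50% of gene reads took 69 and 124 genes in workers, against 793 and 782 in embryos. The groups did not overlap in any of these measures. The median RPKM of the tested genes was 4.54 and 5.54 in workers and 10.3 and 9.29 in embryos. At the top of the range the order was the other way, with 39 genes at 1000 RPKM or more in each worker library, against 13 and 18 in the embryo libraries. Gene reads came to 43.6% and 43.5% of the RPKM denominator in workers and to 38.1% and 38.5% in embryos. The denominators were resolved from the RPKM steps, and which reads the authors counted in them is not given.

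When the libraries were rescaled to the gene reads outside their 100 most abundant genes, the median difference of all genes moved to -0.51. Calls then numbered 1719 higher and 2849 lower in workers. This scaling was chosen after seeing the data. RPKM values are shares of a library, so a lower RPKM in workers does not show fewer transcripts per animal or per cell.

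**Figure D3:**
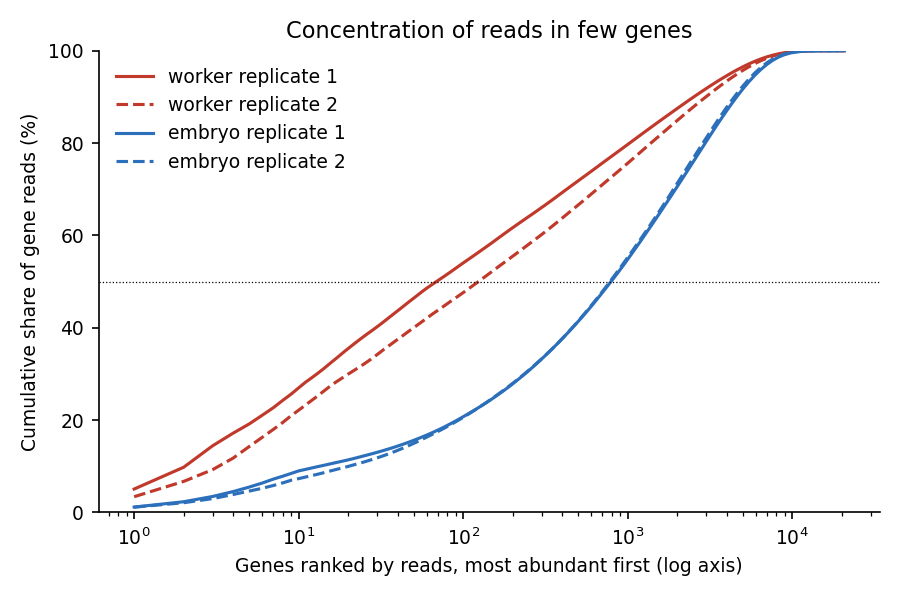
The cumulative share of gene reads in percent is plotted against the number of genes, ranked from the most abundant on a log axis, for the 2 worker and 2 embryo libraries, and the dotted line marks 50%. The worker curves cross it at 69 and 124 genes, far to the left of the embryo curves, which cross at 793 and 782.

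The genes called higher in workers took most of the gene reads of a worker library. The 1409 genes higher under all 3 scalings took 61.1% and 55.7% of gene reads in worker replicates 1 and 2, against 3.91% and 4.70% in embryo replicates 1 and 2. The 960 genes lower under all 3 scalings took 1.71% and 2.09% in workers, against 17.8% and 16.6% in embryos. Of these sets the 4099 genes called lower as deposited but not under all 3 scalings had the highest share of the embryo gene reads. They took 12.1% and 14.4% in workers and 43.5% and 44.1% in embryos. Genes not called took 20.5% and 23.7% in workers and 32.4% and 32.6% in embryos. These shares describe genes chosen on the same libraries and test nothing.

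The largest increase in workers was that of HSALG004217.2, at 10461 and 13896 RPKM in worker replicates 1 and 2, against 1.03 and 0.735 RPKM in embryo replicates 1 and 2. Each embryo library held 12 reads of it, where the worker libraries held 226032 and 190579. Its log2 difference was 12.65 ± 0.27 (SE; limma, Benjamini-Hochberg adjusted p = 4.96e-05). It was also detected outside adults and in males. Its level was 2562 and 3857 RPKM in instar 1 larvae, 118 and 1094 in instar 4 larvae, 3.39 and 2.12 in early pupae, 1.26 and 0.667 in late pupae, and 565 and 383 in males. It was thus near its embryonic level in both pupal stages and high in larvae and adults.

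HSALG004219.2 was next, at 3322 and 5443 RPKM in workers, against 0.308 and 1.83 RPKM in embryos, where the libraries held 3 and 25 reads. Its log2 difference was 11.11 ± 0.45 (SE; limma, adjusted p = 0.000128). Elsewhere its level was 31.6 and 52.2 RPKM in instar 1 larvae, 17.5 and 109 in instar 4 larvae, 0.541 and 0.263 in early pupae, 0.335 RPKM and 0 reads in late pupae, and 246 and 116 in males. Like HSALG004217.2 it was near its embryonic level in pupae, but its larval levels stood much further below its worker level.

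The largest decrease in workers was that of HSALG006681.2, at 0.466 and 0.294 RPKM in workers, or 10 and 4 reads, against 5643 and 1375 RPKM in embryos. Its log2 difference was -10.98 ± 0.64 (SE; limma, adjusted p = 0.000328). The embryo libraries themselves lay far apart for this gene, and both were far above the workers. It stood at 16.5 and 4.31 RPKM in instar 1 larvae, at 0.336 RPKM and 0 reads in instar 4 larvae, at 0.760 and 0.0738 RPKM in early pupae, at 1.27 and 15.8 RPKM in late pupae, and at 0 reads in both male libraries.

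HSALG015784.1 was the second largest decrease, at 0.151 and 0.159 RPKM in workers, or 3 and 2 reads, against 1245 and 855 RPKM in embryos. Its log2 difference was -9.80 ± 0.30 (SE; limma, adjusted p = 7.16e-05). Outside the embryo it reached 2.98 and 0.484 RPKM in instar 1 larvae and no more than 1 read in any library of instar 4 larvae, pupae or males. All 4 genes kept their direction under the 17 alternative settings, but their adjusted p-values rose when either worker library was left out. The genes were named for the largest differences in these same libraries, which makes a change of direction unlikely under any setting.

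**Figure D4:**
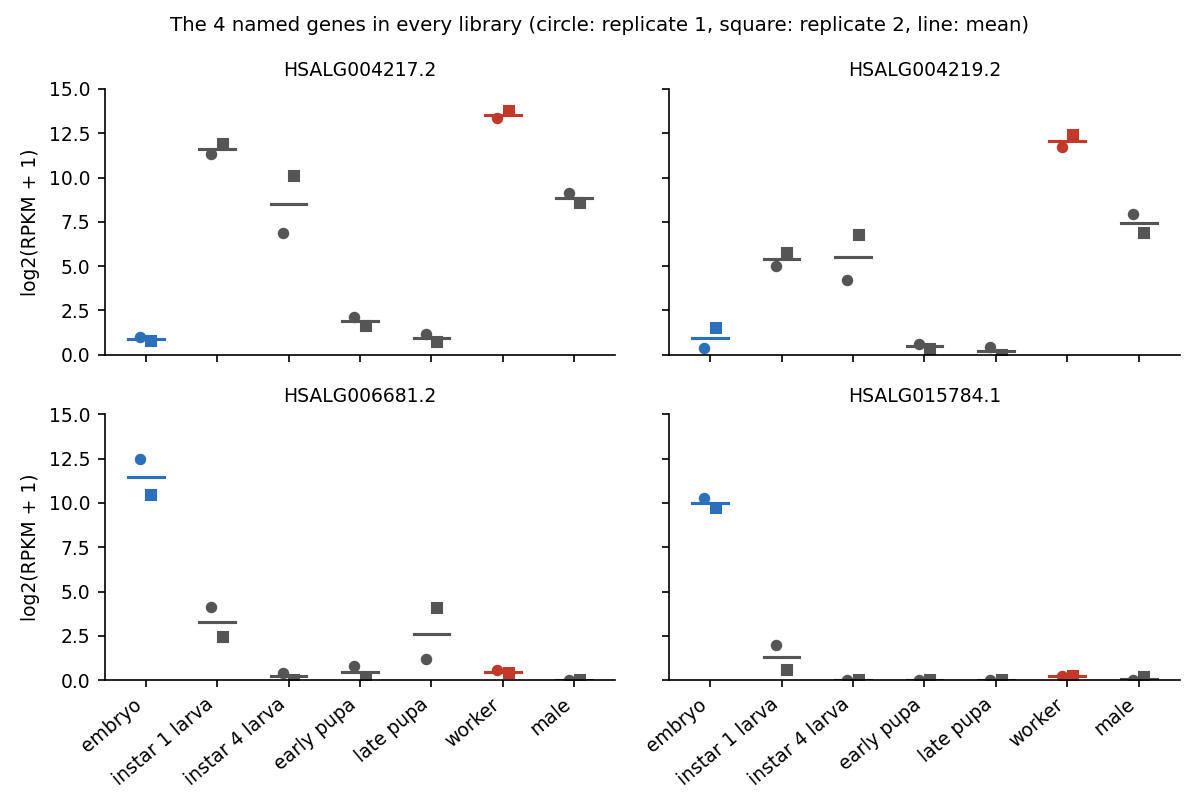
Levels of the 4 named genes in log2(RPKM + 1) in all 14 libraries, with circles for replicate 1, squares for replicate 2 and lines for group means, workers in red and embryos in blue. The 2 upper genes stand at 3322 RPKM or more in both worker libraries and at 1.83 or less in both embryo libraries. The 2 lower genes stand at 0.466 or less in workers and at 855 or more in embryos.

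Changes of at least 16-fold were more numerous toward higher than toward lower levels in workers. Of the 1443 genes called higher in workers, 742 were at least 4-fold and 242 at least 16-fold higher on the log2(RPKM + 1) scale. Of the 5059 called lower, 1097 were at least 4-fold and 114 at least 16-fold lower. The middle 50% of the higher genes ran from 1.39 to 3.24 on the log2 scale with a median of 2.06, and that of the lower genes from -1.92 to -1.24 with a median of -1.53. Under all 3 scalings 241 of the genes at least 16-fold higher were called, and 93 of those at least 16-fold lower. The difference in size between the directions was not tested.

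Few of the tested genes were silent at either end. Of the genes called higher in workers 60 had 0 reads in both embryo libraries, and 23 of these averaged at least 10 RPKM in workers, with a highest mean of 606 RPKM. Of the genes called lower, 57 had 0 reads in both worker libraries, and 20 of these averaged at least 10 RPKM in embryos, with a highest mean of 698 RPKM. Under all 3 scalings, all 60 genes without embryo reads were called higher, and 24 of the 57 without worker reads were called lower. Among all genes called as deposited, 1409 of the 1443 higher and 960 of the 5059 lower were called under all 3 scalings. A gene without reads in 1 group passed the filter only through the other group, which fixes its direction. With 3 reads as the floor of a count of 0, a gene of median length could have escaped at up to 0.0994 and 0.157 RPKM in worker replicates 1 and 2 and at up to 0.184 and 0.132 RPKM in embryo replicates 1 and 2, counting error alone.

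The stages at which these genes were on lay outside the comparison. Of the 60 genes without embryo reads, 28 reached 1 RPKM in both male libraries, 15 in both instar 4 libraries, 8 in both late pupa libraries, 6 in both instar 1 libraries and 5 in both early pupa libraries. For 23 of the 60 no other group reached that level in both libraries. Of the 57 genes without worker reads, 10 reached 1 RPKM in both late pupa libraries, 3 in early pupae, 2 in each larval instar and 0 in males, and 43 reached it in no other group. Among all 11053 tested genes, 8906 reached 1 RPKM in both male libraries, 9570 in late pupae, 8998 in early pupae, 8361 in instar 4 larvae and 8557 in instar 1 larvae, and 523 (4.73%) reached it in none of the 5 groups.

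Most of the abundant worker genes stood far lower in embryos. There were 32 genes at 1000 RPKM or more in both worker libraries, of which 30 were called higher, 1 lower and 1 not called, and 26 were at least 16-fold higher. That is 93.8% called higher, against 13.1% of all tested genes, but choosing genes by a high worker level favours such a call. Their median level was 2239 RPKM in workers, against 29.2 RPKM in embryos. There were 10 genes at 1000 RPKM or more in both embryo libraries, of which 8 were called lower in workers and 2 were not called. Their median level was 655 RPKM in workers, against 2260 RPKM in embryos, and 3 were at least 16-fold lower in workers. The 80% called lower, against 45.8% of all tested genes, come from a choice by embryo level, which favours that direction in the same way. Under all 3 scalings 4 of the 10 were called lower, against 8.69% of all tested genes. Of the 32 abundant worker genes 28 were called higher under all 3, against 12.7% of all tested genes. The choice by level favours these calls too. The median difference of the 10 was -1.65 as deposited and -0.81 with median scaling. Of the 32 abundant worker genes, 24 reached 100 RPKM in both male libraries, 21 in instar 1 larvae, 20 in instar 4 larvae, 14 in late pupae and 7 in early pupae. Of the 10 abundant embryo genes, 7 reached it in each of the larval and pupal groups and 6 in males.

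In the 10 libraries outside the comparison, the worker-high genes were most often highest in males. The 1409 genes higher in workers under all 3 scalings had a median of 13.3 and 15.3 RPKM in workers and 1.19 and 1.27 RPKM in embryos. Their median was 2.68 and 2.00 RPKM in instar 1 larvae, 2.65 and 2.63 in instar 4 larvae, 4.73 and 2.51 in early pupae, 4.57 and 4.14 in late pupae, and 11.9 and 8.69 in males. Set against the median of all tested genes in the same library, on the log2 scale, they lay 1.37 and 1.32 above it in workers and 0.92 and 0.87 above it in males, and between -0.92 and -0.00246 in the larval and pupal libraries. In embryos they lay at -2.36 and -2.18. Of the 5 other groups, males had the highest mean for 750 of the 1409 genes (53.2%), against 2732 of all 11053 tested genes (24.7%). With the libraries centred on their medians the shares were 49.5% and 22.6%.

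The genes lower in workers were most often highest in the youngest larvae. The 960 genes lower under all 3 scalings had a median of 2.73 and 3.48 RPKM in workers and 25.9 and 23.4 RPKM in embryos. Their median was 8.62 and 6.13 RPKM in instar 1 larvae, 3.21 and 2.96 in instar 4 larvae, 7.72 and 4.77 in early pupae, 4.495 and 5.495 in late pupae, and 3.84 and 3.01 in males. Instar 1 larvae had the highest mean of the 5 other groups for 557 of them (58.0%), early pupae for 245 (25.5%), late pupae for 98 (10.2%), males for 36 (3.75%) and instar 4 larvae for 24. Among all tested genes, instar 1 larvae had the highest mean for 33.1%, early pupae for 20.3% and late pupae for 15.5%. Males had it for 24.7% and instar 4 larvae for 6.26%. With median-centred libraries instar 1 larvae had 56.0% of the 960 genes, against 31.3% of all. Early pupae then had 16.8%, against 10.1% of all, and instar 4 larvae 12.4%, against 20.4%. Late pupae had 11.25%, against 15.65%, and males 3.54%, against 22.6%. These shares were not tested, and the early pupa libraries lay apart from each other in the medians of the higher, the lower and all tested genes.

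**Figure D5:**
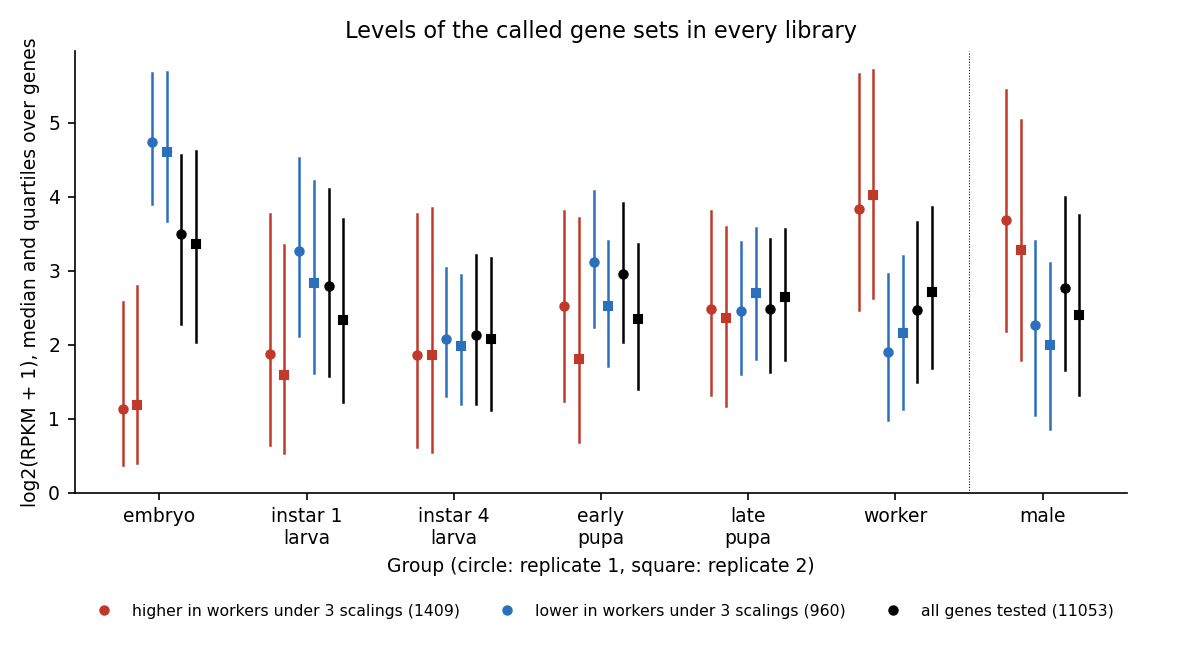
Medians (symbols) and quartiles (lines) over genes of log2(RPKM + 1) in each library, for the 1409 genes higher in workers, the 960 lower in workers and all 11053 tested, with groups in order of development and males last. The genes higher in workers stand above the median of all genes in workers and males and below it or level with it elsewhere, and the genes lower in workers stand furthest above it in embryos, by 1.25 in both libraries, then in instar 1 larvae, and by 0.06 to 0.19 in early pupae and late pupa replicate 2.

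The 241 genes at least 16-fold higher under all 3 scalings had a median of 109 and 106 RPKM in workers and 0.534 and 1.03 RPKM in embryos. In males their median was 65.3 and 44.4 RPKM, in instar 4 larvae 8.12 and 9.66 RPKM, and in the other larval and pupal libraries between 3.95 and 6.57 RPKM. Males had the highest mean of the 5 other groups for 162 of the 241 (67.2%). The 93 genes at least 16-fold lower had a median of 0.444 and 0.434 RPKM in workers and 79.3 and 67.6 RPKM in embryos. In males their median was 0.355 and 0.426 RPKM, in instar 4 larvae 0.875 and 0.635, in early pupae 3.534 and 1.199, in late pupae 1.92 and 2.40, and in instar 1 larvae 2.74 and 2.13. Instar 1 larvae had the highest mean of the 5 other groups for 38 of the 93 (40.9%), late pupae for 27 (29.0%) and early pupae for 22 (23.7%), against 33.1%, 15.5% and 20.3% of all tested genes. With median-centred libraries instar 1 larvae had 31.2% of the 93, close to the 31.3% of all tested genes. Of the 93 genes, 56 reached 1 RPKM in both instar 1 libraries, 54 in late pupae, 45 in early pupae, 40 in instar 4 larvae and 23 in males. Among all tested genes these shares were 77.4% in instar 1 larvae, 86.6% in late pupae, 81.4% in early pupae, 75.6% in instar 4 larvae and 80.6% in males.

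The direction of change was similar over gene models of different length. The lengths resolved from the RPKM steps were multiples of 3 in 97.7% of the tested HSALG models, so these were taken as coding lengths, and in 37.1% of the tested XLOC models. In 4 equal classes of HSALG models, from the shortest to the longest, 14.5%, 11.8%, 13.5% and 12.2% were called higher in workers and 39.9%, 49.9%, 48.4% and 46.2% lower. Spearman's rho between coding length and the worker minus embryo difference was -0.04 over 10719 HSALG genes, and between -0.04 and 0.04 within 4 classes of mean level. These are descriptions across genes, with no test.

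Calls varied with the level of a gene. In 4 equal classes of mean RPKM in the 4 libraries, from the lowest to the highest, 16.1%, 10.3%, 7.89% and 17.9% of genes were called higher in workers, and 31.8%, 45.1%, 54.9% and 51.3% lower. Called lower under all 3 scalings were 2.39%, 7.71%, 11.0% and 13.7%. The pseudocount of 1 draws the differences of low genes toward 0. XLOC models, of which 334 of 438 in the table were tested, were called higher in 50 cases (14.97%) and lower in 121 (36.2%), against 1393 (13.0%) and 4938 (46.1%) of the 10719 tested HSALG models. Under all 3 scalings the shares lay closer for lower calls, at 7.485% of XLOC and 8.72% of HSALG models. For higher calls they were 14.97% and 12.7%. The median difference was -0.73 in XLOC and -0.93 in HSALG models, and the median level was 4.32 RPKM in XLOC and 8.77 RPKM in HSALG models. Whether the identifier classes differ in calls at a matched level was not tested.

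The embryo libraries disagreed on genes of both directions of call. The 330 genes at least 4-fold higher in embryo replicate 2 had a median of 4.43 and 5.28 RPKM in workers, against 3.06 and 32.8 RPKM in embryo replicates 1 and 2. Of these, 39 were called higher (11.8%) and 80 lower in workers (24.2%), both below the 13.1% and 45.8% of all tested genes. The 146 genes at least 4-fold higher in embryo replicate 1 had a median of 1.45 and 1.88 RPKM in workers, against 22.3 and 3.85 RPKM in embryo replicates 1 and 2. Of these, 58 were called by limma, each of them lower in workers (39.7%, against 45.8% of all tested genes). A gene with a wide gap between the embryo libraries has a large spread in the fit, which makes a call less likely. The labels give no age for either embryo library, and what sets them apart was not tested.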

How the data were processed

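The authors deposited RPKM values for 14 whole-body libraries. The submitters' processing notes name STAR 2.5.0b and DESeq2 without saying what each did. Counter, RPKM denominator, genome build, gene lengths and use of strand are not given in the sources used, so overlapping genes may share reads. Groups were taken from the sample titles. Members, lists and rules were chosen with earlier results of these data known.

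For each gene a whole-number length was searched at which its RPKM became whole reads, to a relative tolerance of 6e-06, and this succeeded for all 18543 genes above 0. Genes at 1 RPKM or above in 2 or more of the 4 libraries were tested with limma 3.58.1 in R 4.3.3 on log2(RPKM + 1), with an intensity trend, no block and only these 4 libraries, two-sided, at Benjamini-Hochberg adjusted p below 0.05. This understates the change of low genes. Named are the 2 called genes in each direction that differed most on the log2 scale, provided that the groups did not overlap, the change was 2-fold or more and the higher group averaged 10 RPKM or more. Medians and shares were computed in Python 3.11.15 (pandas 2.3.3, numpy 2.4.6, scipy 1.17.1), and figures were drawn with matplotlib 3.10.9. The resolving of reads and the limma fit were tested on simulated data. The simulation of the fit gave both groups the same spread and no overall shift, unlike these libraries. It therefore does not check the number of calls made here. Since the reads carry no molecular identifiers, floors cover counting error only. Alternatives were another pseudocount, filters, scalings, no trend, a 2-fold minimum, fits of 14 and 12 libraries, a replicate block, library weights, limma-voom on the resolved reads, and leaving out each library. No set tests were run.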

Additional observations from a re-analysis of the deposited data

How the results depend on the processing

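Of 61 alternative counts, 42 stayed within 1.5 times, and of 68 alternative values of the 4 named genes all 68 kept their direction. The named genes were picked for the largest differences in these libraries, which favours this. Testing only genes that average 5 RPKM or more left fewer genes to call. It gave 899 higher of 7415 tested, against 1443 of 11053 as reported. Median scaling gave 3013 calls in all and 998 lower, and quantile normalization 3731 and 1874. Rescaling to reads outside the top 100 genes, added after seeing the data, gave 2849 lower, and the fit of all 14 libraries 1587 lower under all 3 scalings. The cause was not tested. Leaving out each library gave 234 (without worker replicate 2) to 8753 calls (without embryo replicate 2), 205 to 1963 higher and 26 to 6850 lower, and under all 3 scalings 204 to 1854 higher and 20 to 3070 lower. Log2 differences over the alternatives ran from 11.80 to 13.60 for HSALG004217.2, 10.54 to 12.23 for HSALG004219.2, -12.91 to -9.96 for HSALG006681.2 and -12.62 to -8.96 for HSALG015784.1.

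The meaning of the replicate numbers is not given, and deviations of same-numbered worker and embryo libraries correlated at -0.031 over 11053 genes, so the numbers were not used as pairs. A replicate block gave 5598 calls, 1337 higher and 4261 lower. Depth limits genes near the floor of 3 reads, and 2 libraries per group limit every estimate of spread.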

Other observations

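Some genes were abundant at both ends of development. There were 170 genes at 100 RPKM or more in all 4 libraries, with a median level of 217 RPKM in workers, against 361 RPKM in embryos. Of these, 18 were called higher and 78 lower in workers by limma, and 74 were not called. These shares, 10.6% higher and 45.9% lower, are near the 13.1% and 45.8% of all tested genes. Their median difference was -0.68 on the log2 scale as deposited and 0.16 with the libraries scaled to a common median, so its direction turned with the scaling. Under all 3 scalings 11 of the 170 were called higher and 5 lower, smaller shares than the 12.7% and 8.69% of all tested genes. Many of the 170 genes were also abundant outside the comparison, most often in instar 1 larvae and least often in late pupae. In both libraries of a group, 151 reached 100 RPKM in instar 1 larvae, 141 in males, 101 in instar 4 larvae, 90 in early pupae and 72 in late pupae. A missing call does not show that a gene held the same level.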
